A study of Mus musculus with 6 samples.

Results

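RNA of 10 genes known from resident macrophages of the marrow was compared between mouse bone marrow cells sorted for green fluorescent protein (GFP) and unsorted marrow of the same animals. The genes were given as a list of symbols: the complement genes C1qa, C1qb and C1qc, the clearance receptor genes Cd163, Axl and Mertk, the adhesion gene Vcam1, and the iron and heme genes Slc40a1, Hmox1 and Spic. All 10 were measured, out of 18193 named genes, by 17 of 34945 probe sets that carry 1 gene symbol. The brightest probe set over all arrays stood for each gene.

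Both groups came from hemizygous mice of the line Tg(Ren1-GFP)2Kwg, male and female, aged 3 to 6 months, in which GFP is expressed from a renin (Ren1) transgene. The sorted group (n = 3) held marrow cells inside the GFP gate, whose lower limit let in 0.1% of a sample without the transgene, after scatter gates against erythrocytes, debris and cell clumps. The presort group (n = 3) was whole marrow flushed from femurs, without any gate, so it carried the transgene too and was not depleted of GFP-positive cells. Each pool of 4 to 5 mice gave 1 sorted and 1 presort sample, and replicate numbers 1 to 3 name the 3 pools.

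Marrow macrophages sit at the centre of erythroblastic islands, where they engulf the nuclei that maturing red cells expel, and they clear dying leukocytes and aged red cells. Heme from engulfed cells is opened by heme oxygenase, and the iron leaves the macrophage through ferroportin. Spi-C, a transcription factor of the ETS family, is needed for iron-recycling macrophages of spleen and marrow in mice, and heme induces its gene by relieving repression by Bach1. C1q, the recognition part of the classical complement pathway, is made largely by macrophages and tags dying cells for uptake.

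The 3 C1q chains are encoded side by side: in the mouse assembly GRCm38.p6 no other protein-coding gene lies between C1qb, C1qc and C1qa on chromosome 4. Promoter sequences (250 bases before to 50 after the start of the gene, from RefSeq on GRCm38.p6, read 5′ to 3′ on the strand of the gene) were at hand for 6 of the 10 genes. Those of the neighbours C1qb (chr4:136886151-136886450, minus strand) and C1qc (chr4:136892865-136893164, minus strand) are shown because these genes moved together across the arrays, and that of Spic (chr10:88682974-88683273, minus strand) because its protein is an ETS factor. Moving together was not particular to C1qb and C1qc, since replicate 1 was the lowest array of both groups for all 10 genes. Capitals mark matches, on either strand, to GAGGAA, the core that ETS factors such as PU.1 and Spi-C bind, and to TGANNNNGC, a pattern of Bach1, Nrf2 and their small Maf partners.
C1qb: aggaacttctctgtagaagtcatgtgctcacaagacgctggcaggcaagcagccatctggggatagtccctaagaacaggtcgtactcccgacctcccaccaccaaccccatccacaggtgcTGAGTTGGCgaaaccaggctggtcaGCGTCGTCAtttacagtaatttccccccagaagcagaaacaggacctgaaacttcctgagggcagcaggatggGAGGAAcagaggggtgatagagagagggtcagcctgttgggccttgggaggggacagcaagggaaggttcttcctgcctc
C1qc: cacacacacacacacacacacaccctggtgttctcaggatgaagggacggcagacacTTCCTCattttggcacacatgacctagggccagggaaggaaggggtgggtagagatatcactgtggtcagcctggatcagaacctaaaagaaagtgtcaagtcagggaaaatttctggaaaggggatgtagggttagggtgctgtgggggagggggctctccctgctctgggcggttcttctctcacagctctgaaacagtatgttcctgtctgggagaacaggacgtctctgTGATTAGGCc
Spic: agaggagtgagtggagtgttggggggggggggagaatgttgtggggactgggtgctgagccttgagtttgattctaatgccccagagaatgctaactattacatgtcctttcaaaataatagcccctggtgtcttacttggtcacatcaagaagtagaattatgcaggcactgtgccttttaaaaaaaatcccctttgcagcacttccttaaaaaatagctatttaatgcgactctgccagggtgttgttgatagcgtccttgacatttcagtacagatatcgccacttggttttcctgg
The ETS letters stood in 3 of the 6 promoters, those of C1qb, C1qc and Axl, against 28.3% of 32851 promoters of this length. The Bach1 and Nrf2 letters stood in 2 of the 6, those of C1qb and C1qc, against 41.3% of all promoters, and the 2 patterns did not overlap each other in any of these windows. These are matches of letters and no measure of binding. The windows of Spic, Cd163 and Mertk held neither pattern, but shorter forms of these sites were not searched for.

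Every value below is log2 of the deposited intensity, whose median over all probe sets was 6.04 on each array. The 6 arrays share 1 distribution, so differences are relative to the other genes of the array. In bulk RNA, fewer cells of a type and less RNA per cell cannot be told apart. The RNA of sorted samples also differed in the 3′ to 5′ measure of quality: beta-actin read more at its 3′ end than at its 5′ end, by 3.17, 1.54 and 1.43 in sorted replicates 1, 2 and 3, against 1.11, 0.95 and 0.81 in presort replicates 1, 2 and 3.

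All 10 genes fell in sorted samples. Their differences ran from -3.09 for C1qc to -1.40 for Spic, with a median of -2.60, while the median over all genes was -0.00206. For each gene the 3 sorted arrays lay below the 3 presort arrays. By limma with Benjamini-Hochberg adjustment over all genes, 18.1% of the genes tested were lower in sorted samples and 14.5% higher; together these are 32.6%. The groups did not overlap for 23.6% of all genes with sorted samples lower and for 20.9% with sorted samples higher. Centring each array on its median over genes moved the median of all genes to 0.23 and made 66.7% of the called genes higher ones, against 44.4% without it. The 10 genes then lay between -2.86 and -1.17 and all still passed.

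**Figure D1:**
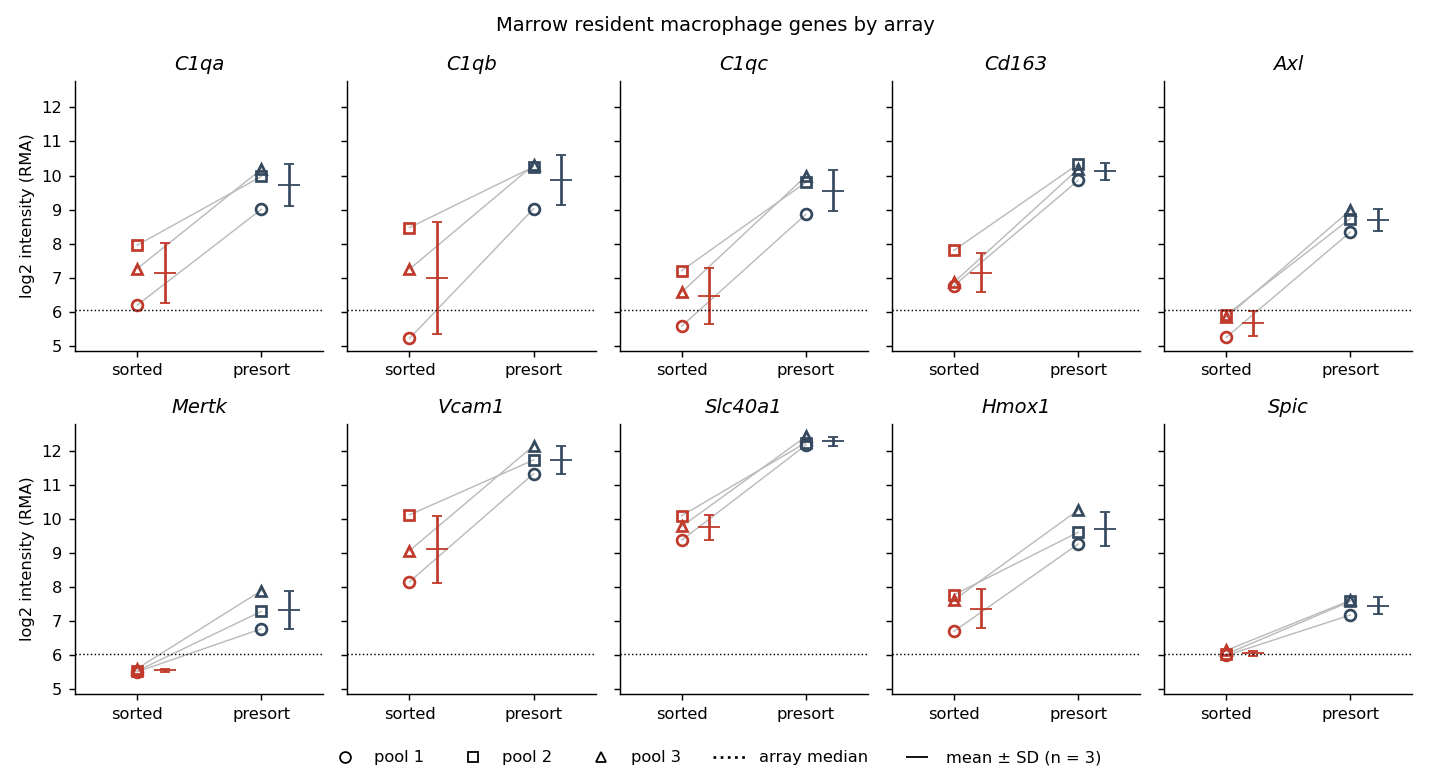
Log2 intensity of the 10 genes on each array, sorted on the left and presort on the right of each panel; symbols mark the 3 pools, grey lines join samples of 1 pool, bars give mean ± SD (n = 3) and the dotted line is the array median of 6.04. In every panel the 3 sorted arrays lie below the 3 presort arrays, and the sorted arrays of Axl and Mertk lie below the array median.

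The complement genes held the largest fall among the 10 and the widest spread. C1qc, the C chain, read 5.59, 7.21 and 6.58 in sorted replicates 1, 2 and 3, against 8.86, 9.80 and 9.98 in presort replicates 1, 2 and 3. Replicate 1 was the lowest in both groups, and the groups stayed 1.65 apart at their nearest arrays. C1qc fell by 3.09 ± 0.43 (SE; 8.50-fold; limma adjusted p = 0.000959), which left 11.8% of the presort level. C1qa, the A chain, read 6.20, 7.96 and 7.27 in sorted samples and 9.01, 9.97 and 10.19 in presort samples, in the order of the pools. It fell by 2.58 ± 0.46 (SE; limma adjusted p = 0.00327), and its order of arrays was that of C1qc in both groups.

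C1qb, the B chain, was the least even of the 10 genes. Its sorted arrays read 5.22, 8.47 and 7.25, a range of 3.25, against 9.03, 10.26 and 10.31 in presort samples. Sorted replicate 1 of C1qb and of C1qc lay below the array median, so their differences in pool 1 may be bounds. Only 0.56 separated its highest sorted from its lowest presort array. It fell by 2.88 ± 0.75 (SE; limma adjusted p = 0.0198), and the share of the presort level left was 7.16% in pool 1 and 29.0% in pool 2. C1qb stood at -2.68 without presort replicate 2 (adjusted p = 0.0722), at -2.66 without presort replicate 3 (0.0737) and at -2.79 without pool 3 (0.138). These fits did not pair the samples of a pool. With all arrays and pool as a block, which pairs them, C1qb had a limma adjusted p of 0.000908. In a fit that adjusts for the end bias of beta-actin it stood at -1.15 ± 0.54 (SE; 0.171).

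Among the clearance receptors, Cd163 and Axl fell further than Mertk by value. Cd163, which takes up hemoglobin bound to haptoglobin, read 6.77, 7.81 and 6.87 in sorted samples, against 9.86, 10.34 and 10.19 in presort samples. It stood at -2.98 ± 0.28 (SE; limma adjusted p = 0.000116), with 11.8% of the presort level left in pool 1 and 17.3% in pool 2. Axl, a TAM receptor kinase that binds dying cells through Gas6, read 5.26, 5.91 and 5.84 in sorted samples and 8.34, 8.74 and 8.99 in presort samples. It fell by 3.02 ± 0.22 (SE; 8.12-fold; limma adjusted p = 4.09e-05), at -2.83 in pool 2 and -3.15 in pool 3. All 3 sorted arrays lay below the array median, so without detection calls this fold may be only a bound. The gap of 2.43 between its highest sorted and lowest presort array was the widest of the 10 genes.

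Mertk, the TAM receptor that resident macrophages use to engulf apoptotic cells, read 5.51, 5.54 and 5.61 in sorted samples, against 6.77, 7.28 and 7.89 in presort samples. The sorted arrays differed by no more than 0.09, all below the array median, and the presort arrays by 1.12. The difference was -1.76 ± 0.25 (SE; limma adjusted p = 0.00108), at -1.26 in pool 1, -1.74 in pool 2 and -2.29 in pool 3. The sorted level of Mertk may likewise be only a bound.

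Vcam1, the adhesion molecule by which the central macrophage holds erythroblasts and leukocytes, read 8.15, 10.11 and 9.06 in sorted samples, against 11.32, 11.72 and 12.14 in presort samples. Sorted replicate 2 stood highest, and pool 2 kept 32.8% of the presort level, against 11.1% in pool 1 and 11.8% in pool 3. It fell by 2.62 ± 0.45 (SE; 6.14-fold; limma adjusted p = 0.00275).

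The iron and heme genes fell in each of the 3 pools. Slc40a1, which encodes the iron exporter ferroportin, read 9.37, 10.09 and 9.77 in sorted samples and 12.16, 12.23 and 12.41 in presort samples. Its presort arrays lay within 0.25 of each other. Slc40a1 fell by 2.52 ± 0.19 (SE; limma adjusted p = 4.02e-05), with 14.5%, 22.7% and 16.1% of the presort level left in pools 1, 2 and 3. Hmox1, the inducible heme oxygenase, read 6.70, 7.77 and 7.62 in sorted samples, against 9.26, 9.60 and 10.25 in presort samples. It fell by 2.34 ± 0.33 (SE; limma adjusted p = 0.00105), to 19.7% of the presort level.

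Spic had the smallest difference of the 10. Its sorted arrays read 5.99, 6.03 and 6.14, close to the array median, and its presort arrays 7.18, 7.58 and 7.61. The groups did not overlap, and Spic fell by 1.40 ± 0.14 (SE; 2.64-fold; limma adjusted p = 0.000179). The sorted arrays lay within 0.15 of each other, as those of Mertk lay within 0.09.

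**Figure D2:**
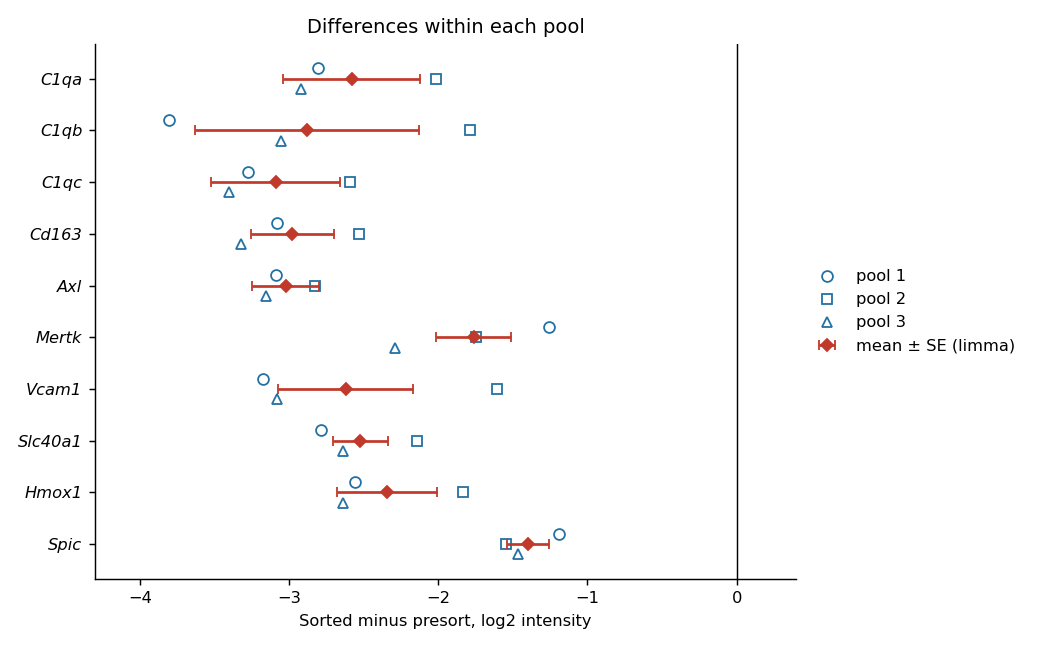
Sorted minus presort log2 intensity of each gene within pools 1, 2 and 3 (open symbols), with the mean and its SE from limma over 3 arrays per group (red). All 30 pool differences lie below 0, from -3.80 for C1qb in pool 1 to -1.19 for Spic in pool 1.

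On the probe sets that stand for the genes, the arrays of a group were ordered alike. Presort replicate 1 was the lowest presort array for 10 of 10 genes, against 44.7% of all genes. Sorted replicate 1 was the lowest sorted array for 10 of 10, but how often that held over all genes was not counted. In presort samples, replicate 1 lay below the mean of replicates 2 and 3 by between 0.16 for Slc40a1 and 1.26 for C1qb, and for each C1q chain by at least 1.03. Sorted replicate 2 was the highest sorted array for 8 genes, all but Mertk and Spic, against 33.3% of all genes, and the same 8 had their smallest difference in pool 2. The median of the 10 differences was -2.95 in pool 1, -1.92 in pool 2 and -2.99 in pool 3.

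Sorted replicate 1, lowest for all 10 genes, also had the strongest end bias of beta-actin. Without that array all 10 genes still passed, at -2.82 for Axl to -1.37 for Spic, with a median of -2.12 and a highest limma adjusted p of 0.0158 for C1qb. Adjusted for that bias 9 of 10 passed, with a median of -1.66. Cd163 then stood at -2.62 ± 0.34, Axl at -2.58 ± 0.21 and Slc40a1 at -2.16 ± 0.17 (SE), while C1qa stood at -1.61 ± 0.40 and Vcam1 at -1.68 ± 0.40, more than 1.5 times nearer to 0 than without it. The end bias of beta-actin was higher on each sorted array than on any presort array. A fit with it as covariate therefore cannot tell RNA quality and the sort apart, here or for the genes below. The part of RNA quality in these differences was not tested.

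Other probe sets of the same genes mostly gave the same direction. Of the 17 probe sets 16 fell in a fit over all single-symbol probe sets, of which 15.3% were lower and 13.5% higher, or 28.8% in all (limma), and none rose. The exception was 1438621_x_at of Axl, which read 3.67, 3.60 and 3.65 in sorted samples and 3.65, 3.78 and 3.71 in presort samples. It was far dimmer than the array median in both groups, differed by -0.08 ± 0.10 (SE; adjusted p = 0.664), and brought the mean of the Axl probe sets to -1.55. For Vcam1, 1415989_at stood at -2.95 ± 0.30, like the brightest one, but 1451314_a_at at -0.69 ± 0.20 (SE; adjusted p = 0.0395), with sorted arrays at 6.73, 6.94 and 6.64 and presort arrays at 7.01, 7.64 and 7.75. That call was lost in 11 of 17 alternative analyses, for example with each array centred on its median (-0.63, adjusted p = 0.0528) or without pool 3 (-0.49, 0.289), and which transcripts it reads was not examined here.

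The remaining probe sets all fell but differed in size and in the order of the arrays. The second probe set of Slc40a1, 1448566_at, stood at -3.14 ± 0.26 (SE). That of Spic, 1449134_s_at, stood at -2.35 ± 0.21, with sorted arrays at 4.29, 3.95 and 4.19 and presort arrays at 6.15, 6.43 and 6.92, so sorted replicate 1 was the highest sorted array here and the lowest on the brighter probe set. Both Spic probe sets have names ending in _x_at or _s_at and can match several transcripts, so the smaller fall of Spic holds for the brighter of them only. The 3 probe sets of C1qb stood at -3.38 ± 0.72, -2.88 ± 0.77 and -1.91 ± 0.50, and in each sorted replicate 2 was the highest sorted array. The smallest pool difference of 1434366_x_at was in pool 1, at -1.37, against -1.47 in pool 2. All 3 missed the threshold with adjustment for beta-actin.

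**Figure D3:**
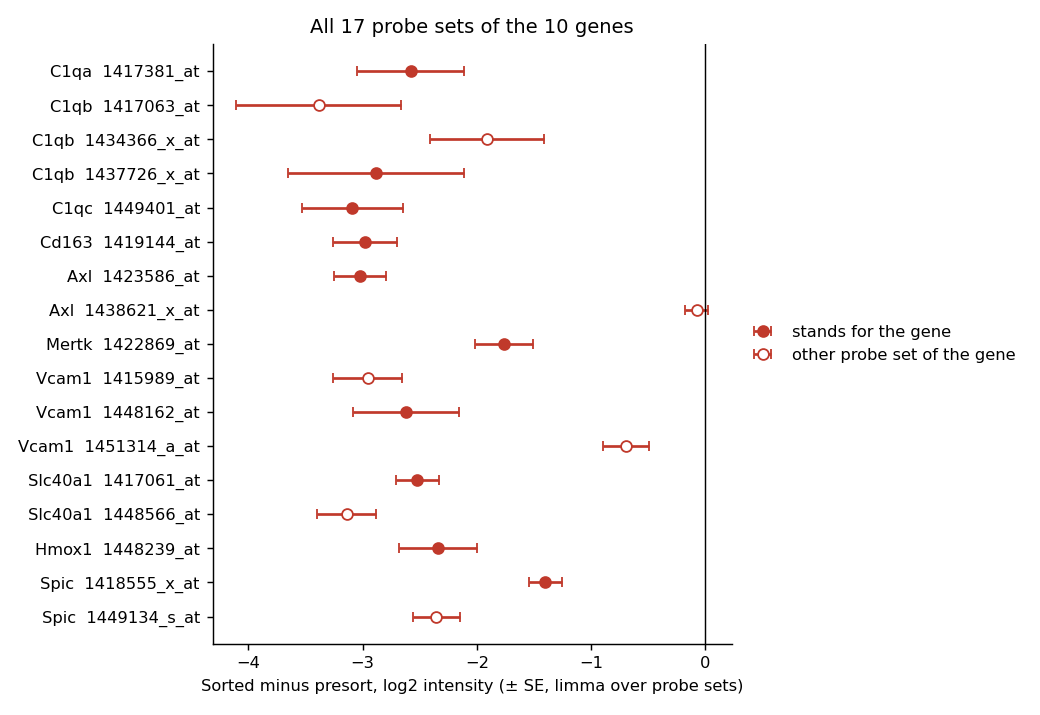
Sorted minus presort log2 intensity (± SE, limma over all single-symbol probe sets, 3 arrays per group) for the 17 probe sets of the 10 genes; filled points stand for the gene. All but 1438621_x_at of Axl lie below 0 by more than their SE, and 1451314_a_at of Vcam1 lies nearest to 0 among the others.

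Receptor, ligand and enzyme genes around the 10 moved less evenly. The counts of each list below stand against 18.1% of all genes lower and 14.5% higher (limma). Of 24 genes listed as marking tissue macrophages 22 were measured, and 15 fell and none rose (median -1.81). Sirpa, an inhibitory receptor that reads CD47, stood at -2.93 ± 0.14, the mannose receptor gene Mrc1 at -2.88 ± 0.35, the lysosomal protein gene Cd68 at -2.88 ± 0.31 and Csf1r, the receptor that macrophages need for survival, at -2.79 ± 0.40 (SE, limma). With the mean of its probe sets Sirpa stood at -1.84, and with adjustment for beta-actin Csf1r at -1.76. Genes outside the rule for naming, chosen after their values were seen, include Adgre1, which encodes F4/80, at -2.22 ± 0.17 and Siglec1, the sialoadhesin CD169 of marrow macrophages. Siglec1 did not pass, at 0.20 ± 0.18 (SE; limma adjusted p = 0.497), with 6.33, 6.88 and 6.80 in sorted samples against 6.40, 6.72 and 6.28 in presort samples. Those presort values lay close to the array median of 6.04. At a like presort level (6.06, 6.15 and 6.30) Lyve1 fell by 1.73 ± 0.21 (SE). Folr2, with 6.22, 6.45 and 6.55 in presort samples, did not pass at -0.28 ± 0.13 (SE). These 2 were also named after their values were seen. Whether the probe set of Siglec1 could read a fall was not tested. Maea, which mediates macrophage contact with erythroblasts, did not pass either, at -0.18 ± 0.13 (SE).

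Of the complement partners, 18 of 22 were measured, 7 fell and 2 rose (median -0.08, which turned to 0.15 with median centring). Over all genes 18.1% fell and 14.5% rose. C5ar1, the receptor for the fragment C5a, stood at -3.55 ± 0.32, the C1q and scavenger receptor gene Lrp1 at -2.09 ± 0.25 and properdin, Cfp, at -1.66 ± 0.26 (SE, limma). The mean of probe sets gave -1.29 for Lrp1 and -0.50 for Cfp, which then missed (adjusted p = 0.0697). The members that rose were Cd55, which speeds the decay of complement convertases, at 1.89 ± 0.14 and Cd93, once described as a C1q receptor, at 1.34 ± 0.25. The rise of Cd93 missed with adjustment for beta-actin (0.97, adjusted p = 0.0528) and without pool 3 (1.25, 0.0577), and the mean of its probe sets was 0.80. Calr, calreticulin, was named for its high signal and differed by 0.05 ± 0.11 (SE).

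Among 19 genes of apoptotic cell clearance beside the receptors above, 11 fell and 1 rose (median -0.79). The largest falls were those of Cd300lf, a phosphatidylserine receptor, at -2.73 ± 0.31, Dock1, which activates Rac during engulfment, at -2.70 ± 0.15 (-1.31 over the mean of its probe sets), the scavenger receptor gene Cd36 at -2.21 ± 0.27 and Stab2 at -1.95 ± 0.15 (SE, limma). Rac1 and Itgav, named for their high signal, did not pass, with Itgav at -0.0017 ± 0.20. Rac1 stood at -0.27 ± 0.16, and at -0.69 and past the threshold (adjusted p = 0.00381) once probe sets ending in _x_at or _s_at were left out. Named after their values were seen, Tyro3, the third TAM receptor, read 5.59, 5.48 and 5.66 in sorted samples against 5.43, 5.40 and 5.69 in presort samples, where the groups overlapped, and differed by 0.07 ± 0.12 (SE). All of these values lay below the array median, and whether a change of Tyro3 could be read was not tested. Both TAM ligand genes fell, Pros1 by 1.44 ± 0.15 and Gas6 by 1.14 ± 0.31 (SE), but Gas6 kept its call in only 12 of 19 alternative analyses.

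For heme and iron handling, 20 of 22 further genes were measured, 9 fell and 2 rose (median -0.49). Slc11a1, which pumps metal ions out of the phagosome, stood at -3.40 ± 0.18, haptoglobin, Hp, at -3.06 ± 0.35, the biliverdin reductase gene Blvra at -1.57 ± 0.10 and the heme exporter gene Flvcr1 at -1.43 ± 0.15 (SE, limma; -0.53 over the mean of its probe sets). Hp is known from neutrophil granules too. The ferritin heavy chain gene Fth1 changed less, at -0.47 ± 0.11, and missed with median centring (-0.24, adjusted p = 0.122), with adjustment for beta-actin (-0.46, 0.0663), without presort replicate 2 (-0.47, 0.0536) or 3 (-0.45, 0.0617), and without pool 2 (-0.40, 0.125) or pool 3 (-0.51, 0.0762). Pcbp1, an iron chaperone, did not pass at 0.20 ± 0.11, but did with median centring (0.42, adjusted p = 0.0307).

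The regulators moved in both directions: of 9 measured, 4 fell and 4 rose. Spib, a relative of Spic used by B cells and plasmacytoid dendritic cells, rose by 2.27 ± 0.31, at 13.90, 13.41 and 13.87 in sorted samples against 12.19, 11.23 and 10.94 in presort samples. Bach2, a repressor related to Bach1 and used by B cells, rose by 2.22 ± 0.29, and the small Maf gene Mafg fell by 1.68 ± 0.22 (SE, limma). Maff rose by 1.23 ± 0.33, a call kept in 11 of 19 alternative analyses. Named after their values were seen, Spi1, which encodes PU.1, fell by 0.92 ± 0.15, and Bach1, the heme sensor that represses Spic and Hmox1, fell by 0.60 ± 0.13, a call lost with median centring (-0.37, adjusted p = 0.0706), without pool 2 (-0.51, 0.0805) and without pool 3 (-0.58, 0.0885).

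Around Vcam1, 11 adhesion genes gave 4 falls and 3 rises, beside 18.1% of all genes lower and 14.5% higher. The alpha chain of its main receptor, Itga4, did not pass at -0.16 ± 0.11, while the beta chains that pair with it fell, Itgb7 by 1.78 ± 0.30 and Itgb1 by 1.62 ± 0.13 (SE, limma; -0.60 for Itgb1 over the mean of its probe sets). Itgb2, the chain of the leukocyte integrins, stood at -1.88 ± 0.13. Icam2, a ligand of those integrins, rose by 1.74 ± 0.14.

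**Figure D4:**
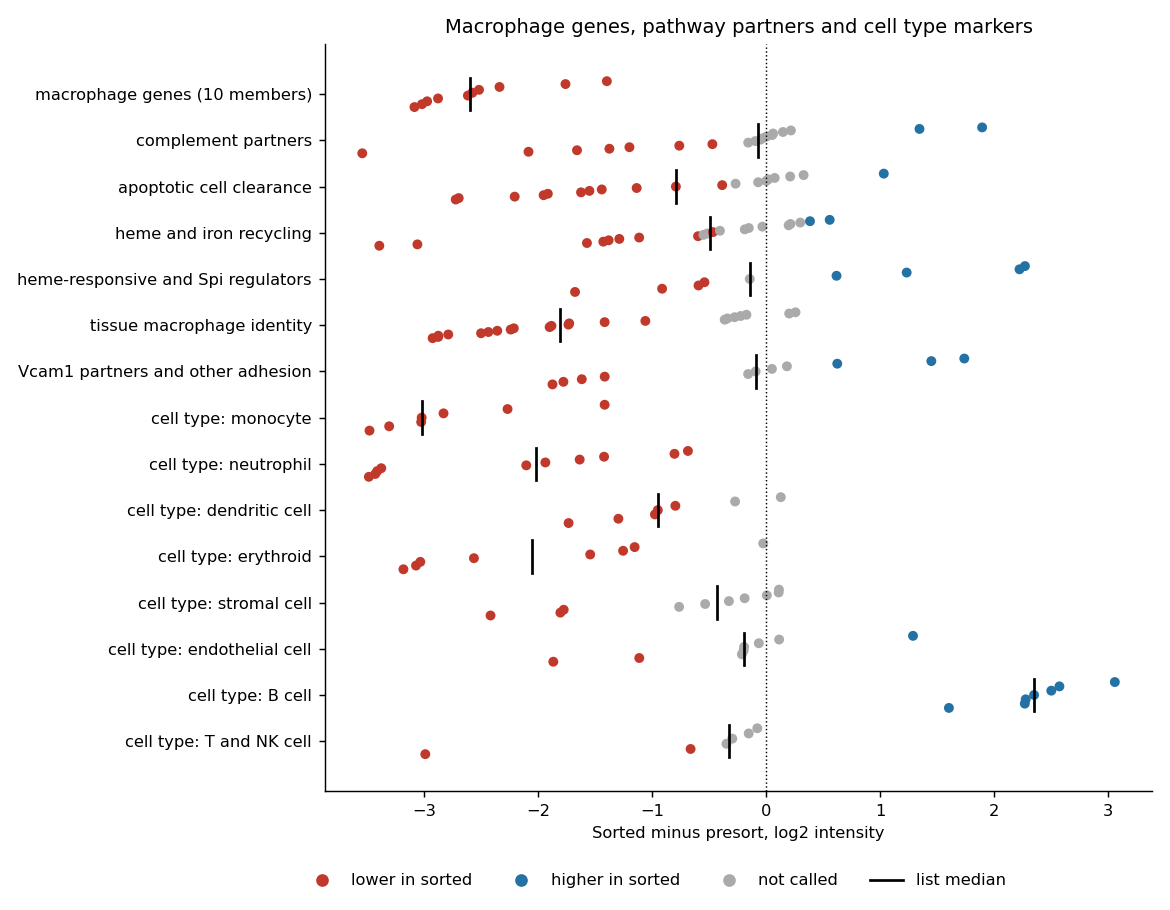
Sorted minus presort log2 intensity (limma) of each measured gene in the 10 macrophage genes, 6 lists of related genes and 8 lists of cell type markers; colour gives the call and the black bar the list median. The 10 macrophage genes lie between -3.09 and -1.40, and the B cell markers between 1.60 and 3.06.

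Markers of other cells that share some of these genes moved in the same samples. The counts of all cell type lists also stand against 18.1% of all genes lower and 14.5% higher. Monocyte markers fell for 7 of 7 measured genes (median -3.02), with a summed intensity of 1925 to 3482 in sorted samples against 17090 to 20052.5 in presort samples, and Ccr2 at -3.48 and Treml4 at -3.31. The fall of Ms4a6c, at -3.02 the gene of that median, held for its brightest probe set only. Over the mean of its probe sets it stood at 0.18 (limma adjusted p = 0.352). Erythroid markers, whose cells also carry ferroportin, fell for 7 of 8 (median -2.06), with summed intensities of 14606 to 30807 in sorted samples against 64358 to 66566 in presort samples and Klf1 at -3.18. Alas2, the heme synthesis gene of red cell precursors, read 12.01, 12.82 and 13.29 in sorted samples, against 14.03, 13.87 and 13.69 in presort samples. It stood at -1.16, a call kept in 15 of 19 alternative analyses and missed with adjustment for beta-actin (-0.52, limma adjusted p = 0.158). Hba-a1, given to complete the list after its values were seen, did not pass at -0.03 (limma adjusted p = 0.916). Neutrophil markers fell for 10 of 10 (median -2.02; summed 57252 to 106517 in sorted samples, 200452 to 209578 in presort samples), and dendritic cell markers for 5 of 7 (median -0.95; summed 526.3 to 809.7 in sorted samples, 1086 to 1441 in presort samples). With adjustment for beta-actin 6 of 7 monocyte, 5 of 8 erythroid, 7 of 10 neutrophil and 3 of 7 dendritic cell markers fell. With median centring, and without sorted replicate 1, 4 of 7 dendritic cell markers fell.

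Stromal and endothelial cells make Vcam1 as well. Stromal markers fell for 3 of 10 (median -0.43; summed 617.2 to 648.7 in sorted samples, 940.4 to 2088 in presort samples), among them Cxcl12 at -2.42 ± 0.32 (SE, limma; -1.54 over the mean of its probe sets), which read 6.55, 6.88 and 6.29 in sorted samples and 8.47, 9.75 and 8.76 in presort samples. Without sorted replicate 1, and with adjustment for beta-actin, 2 of the 10 fell. Over the mean of probe sets Col1a2 missed (-1.07, limma adjusted p = 0.055) and Kitl kept its call at -0.49. Pdgfrb, named after its values were seen, then passed (-0.97, adjusted p = 0.000636). Endothelial markers gave 2 falls and 1 rise among 8, near the shares of all genes given above (median -0.20, 0.03 with median centring; summed 587.2 to 701.2 in sorted samples, 558.1 to 799.8 in presort samples). One of the falls, that of Vwf, had overlapping groups, and without sorted replicate 1 or with adjustment for beta-actin 1 of 8 fell. Egfl7, named after its values were seen, was not called at 0.11. Over the mean of its probe sets it fell (-0.64, limma adjusted p = 0.0041). Of 6 T and NK cell markers 2 fell (median -0.33), Nkg7 at -2.99 ± 0.20 and Ncr1 at -0.67 ± 0.16 (SE, limma), and Ncr1 missed with median centring (-0.44, adjusted p = 0.0555). The T cell genes Cd3e, Cd3g, Cd4 and Cd8a, given here to complete the list after their values were seen, did not pass, at -0.08, -0.35, -0.30 and -0.16. B cell markers rose for 7 of 7 (median 2.35; summed 55801 to 62118 in sorted samples, 8118 to 16950 in presort samples). Which cells carried the RNA of the 10 genes was not tested.

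The genes whose pattern over the 6 arrays was most like the mean of the 10 were Fcna, Dach1, Iqgap2, Cd5l and Sema4a. Fcna, a ficolin, lay closest, at a root mean square distance of 0.0891 on the log2 scale, and stood at -2.50 ± 0.36 (SE; limma adjusted p = 0.00108). It read 7.42, 8.66 and 8.23 in sorted samples, against 10.03, 10.65 and 11.13 in presort samples. Cd5l, a secreted protein of tissue macrophages, had a distance of 0.146 and stood at -2.36 ± 0.39, and at -1.52 with adjustment for beta-actin. Of the 10 genes themselves Hmox1 lay nearest to their mean, at 0.177, and Spic farthest, at 0.664. Fcna and Cd5l also stand in the list of tissue macrophage genes above. These distances describe 6 arrays that fall into 2 groups, and a gene with a like difference between the groups and a like order of arrays is near by construction.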

How the data were processed

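Per the labels' protocols, Trizol-extracted RNA was amplified with an Affymetrix 3′ IVT kit and labelled with biotin for the arrays. What was deposited are linear intensities (9.71 to 38492.08 on each array), made by the authors with RMA, per the submitters' processing notes; its version was not given in the sources used here. Log2 was taken with no pseudocount and no filter.

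Of 45101 probe sets 34945 carried 1 gene symbol in the platform annotation; 932 carried several, 9160 had none here and 64 were controls. List genes without such a probe set were not analysed here. Entrez numbers of the 10 genes matched RefSeq GRCm38.p6. The 2 groups of arrays were tested by lmFit and eBayes of limma 3.58.1, under R 4.3.3 (two-sided, 4 residual degrees of freedom before moderation), adjusted by Benjamini-Hochberg over 18193 genes, threshold 0.05. The fit was tested on simulated data, drawn independently for each array, without pools or differences in RNA quality. That run gives no error rate for the arrays used here. Depth is not defined for arrays; their number limits the precision. No other per-sample columns were present.

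The labels describe 1 pool of mice behind each replicate number, which pairs the samples. Their deviations from group means correlated across genes at 0.39, 0.20 and -0.03. The block by pool was an alternative. Others were leaving out arrays or pools, the dimmest 33.3% of genes, repeated quantile normalization, median centring, the mean of probe sets, dropping _x_at and _s_at probe sets, array weights, a robust prior with an intensity trend, a pseudocount of 16 and the end bias of beta-actin (3′ minus 5′ probe set) as covariate.

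The 10 genes and all lists were chosen with earlier results of these data known. The rule names each of the 10 genes, up to 4 genes per list with the largest called differences, the 2 brightest of a list and the 5 genes most like the mean profile; others are marked as chosen later. The sort was not checked against the renin gene here. Python 3.11.15 and matplotlib 3.10.9 drew the figures.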

Additional observations from a re-analysis of the deposited data

How the results depend on the processing

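The 10 macrophage genes kept their direction in all 189 pairs of a gene and an alternative analysis, and their call in 185; the other 4 were C1qb, with adjusted p from 0.0722 to 0.171. Both probe sets of Spic end in _x_at or _s_at, so leaving out such probe sets gave no value for Spic. With pool as a replicate block all 10 fell, with adjusted p up to 0.000908, and over all genes 3548 fell and 2860 rose; the block changed no call among the 10. Leaving out an array or a pool gave 9 to 10 of the 10 genes lower and 10 to 16 of the 17 probe sets lower, with the 10 reached without pool 3. Over all genes it gave 1544 to 2608 higher and 2362 to 3256 lower, against 2629 and 3296 with all arrays. Of the complement partners 4 to 7 were then lower and 1 to 2 higher, of the clearance genes 1 to 2 higher, of the heme and iron genes 0 to 2 higher, and of the regulators 2 to 4 lower and 2 to 4 higher. With adjustment for beta-actin 4 complement partners fell and 1 rose, 1 heme and iron gene rose and 2 regulators rose. Without the dimmest genes 4 complement partners fell, because C1ra, C3ar1 and Serping1, called lower with all genes, were among those left out and not tested. With an intensity trend and robust prior 1 heme and iron gene rose. With median centring 5162 genes were higher and 2576 lower, 4 heme and iron genes rose, 2 regulators fell and 1 tissue macrophage gene, Maf, rose. The causes of the other changes were not tested. With 3 arrays a group and no detection calls, falls have no settled size where sorted arrays lie below the array median. That was so on 3 sorted arrays for Axl and Mertk, 2 for Spic and 1 each for C1qb and C1qc.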
